A study of Mus musculus with 14 samples.

Results

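Interferon response genes are the genes that cells switch on after interferon has bound its receptor. A list of 9 of them was followed here in newborn mouse eyes: Mx1, Rsad2, Irf7, Ifit1, Ifit3, Isg15, Usp18, Oasl2 and Ifi44. Members were taken as probe sets that the array annotation assigns to 1 of these genes alone, without regard to their values. This gave 9 probe sets of 7 genes, among 20380 single-gene probe sets of 12393 genes. Rsad2 had 3 probe sets and the other 6 genes had 1 each. The annotation gives the Isg15 probe set a second gene, so Isg15 was left out, and Ifi44 was not analysed here.

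RNA came from whole eyes at postnatal day 1, and each of 14 arrays held 1 labelled sample. The Snf2h experiment compared 4 samples labelled as lens-conditional knockout (cKO) of Snf2h, the ISWI ATPase encoded by Smarca5, with 4 wildtype samples, all on C57BL/6. The Brg1 experiment compared 3 samples labelled as cKO of Brg1, the SWI/SNF ATPase encoded by Smarca4, with 3 wildtype samples, all on a mixed background. Every change below is a knockout mean minus the wildtype mean of the same experiment. The labels name neither the Cre driver of either line nor the cells in which Brg1 was deleted, and they do not say whether animals were pooled. P-values therefore measure the spread between these samples, and in whole eyes more responding cells and more RNA per cell cannot be told apart.

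Type I interferons bind a receptor pair, Ifnar1 and Ifnar2, and the kinases Jak1 and Tyk2 then pass the signal to transcription factors in the nucleus. These bind the interferon-stimulated response element (ISRE), a short GAAA-rich motif in the promoters of responding genes. Among the products are antiviral effectors (Mx1, Rsad2, Ifit1, Ifit3, Oasl2), an amplifier of the response (Irf7) and a brake on it (Usp18, which removes Isg15 from proteins and blocks the receptor). Most of these genes are kept low in tissue that is not infected or inflamed.

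The promoters of Ifit1, Ifit3 and Rsad2 are shown because, of the 5 measured members with a promoter entry, these 3 hold the ISRE letters. They are RefSeq sequence of build GRCm38.p6, read 5′ to 3′ on the strand of the gene and ending at the base before transcription starts, with ISRE matches in capitals. Ifit1 is at chr19:34640739-34640888 on the plus strand, Ifit3 at chr19:34583363-34583528 on the plus strand and Rsad2 at chr12:26456453-26456602 on the minus strand.
Ifit1: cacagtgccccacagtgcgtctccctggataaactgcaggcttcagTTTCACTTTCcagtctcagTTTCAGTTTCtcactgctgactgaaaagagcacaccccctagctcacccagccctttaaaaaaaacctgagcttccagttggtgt
Ifit3: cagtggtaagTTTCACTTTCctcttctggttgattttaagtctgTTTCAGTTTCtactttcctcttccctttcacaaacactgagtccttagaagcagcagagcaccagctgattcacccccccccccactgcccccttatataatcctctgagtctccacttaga
Rsad2: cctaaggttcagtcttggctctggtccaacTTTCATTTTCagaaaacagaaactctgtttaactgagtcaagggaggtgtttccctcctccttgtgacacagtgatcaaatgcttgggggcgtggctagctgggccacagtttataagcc

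The motif searched was GAAANNGAAA, or TTTCNNTTTC on the other strand, in the 250 bases before each start. Ifit1 and Ifit3 hold 2 matches each and Rsad2 holds 1, while 2.98% of 32851 promoters of that length hold any. Irf7 and Oasl2 hold no match in this window, and the table has no entry for Mx1 or Usp18. RefSeq lists Mx1 of the C57BL/6J genome as a transcribed pseudogene, and which Mx1 allele the mixed-background eyes carried is not given in the sources used here.

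Array facts that touch these results were few. The 14 arrays were close in brightness, with medians of 101 to 114 on the linear scale. Snf2h cKO replicates 1 and 2 were near-identical, with an SD of 0.22 for their log2 differences over all probe sets against 0.42 to 0.72 for the other pairs within a group. Snf2h wildtype replicate 3 had a Gapdh 3′ minus 5′ difference of 4.47 on the log2 scale, a measure of RNA integrity, against 0.63 to 1.46 in the other 13 arrays. Eye markers were bright in wildtype eyes, with mean log2 levels of 11.6 to 12.5 for 6 lens genes and 9.57 to 10.2 for 6 retina genes. The deleted genes did not pass the test, and their probe sets did not agree. In Snf2h cKO eyes the most negative Smarca5 probe set changed by −0.50 ± 0.16 (limma SE, adjusted p = 0.188) and the others by −0.19 and 0.31. In Brg1 cKO eyes the more negative Smarca4 probe set changed by −0.74 ± 0.30 (adjusted p = 0.579) and the other by 0.05.

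In Brg1 cKO eyes every interferon response probe set had a higher mean than in wildtype eyes, by log2 changes of 0.78 to 3.58, and 1 of them, Mx1, passed the test. The median change was 2.53, against −0.01 over all 20380 probe sets. At an unadjusted p under 0.05, 8 of 9 were higher, against 4.44% of all probe sets. In 8 of 9 the 3 knockout arrays all lay above the 3 wildtype arrays, against 7.23% of all probe sets. At a Benjamini-Hochberg adjusted p under 0.05 (limma, over all probe sets), the count was 1 of 9 against 0.363% of all probe sets. The median fell to 1.53 without cKO replicate 2, the array with the highest levels. That array also had a Gapdh 3′ minus 5′ difference of 0.963, against 0.63 to 0.74 in the other 5 Brg1 experiment arrays, and the part of this in its levels was not tested.

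Mx1, in mice where the gene is intact, encodes an antiviral GTPase that sits in the nucleus. Its probe set 1451905_a_at was at log2 levels of 3.85, 3.86 and 4.33 in the wildtype arrays (replicates 1 to 3) and 7.15, 8.14 and 7.49 in the Brg1 cKO arrays. The groups were far apart, and the spread within each was small beside the gap. Mx1 rose 12.0-fold (3.58 ± 0.28 on the log2 scale, limma SE, adjusted p = 0.0044, n = 3 against 3). It moved from the 21.7th to the 59th percentile of all probe sets. Leaving out any 1 array gave 3.31 to 3.80, and Mx1 passed each time, with the highest adjusted p at 0.0477 without wildtype replicate 2.

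Rsad2 encodes viperin, a radical-SAM enzyme that makes a chain-terminating nucleotide. Its brightest probe set, 1436058_at, was at 5.41, 5.77 and 7.79 in Brg1 wildtype arrays and at 9.04, 10.62 and 9.999 in cKO arrays. Wildtype replicate 3 stood well above the other wildtype arrays yet below every knockout array. The change was 3.57 ± 0.66 (11.8-fold, adjusted p = 0.0911 by limma), which missed the threshold. Without wildtype replicate 3 it was 4.30 with an adjusted p of 0.0347 by limma, a pass not set against all probe sets under that setting.

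The other Rsad2 probe sets differed in size from the first. Probe set 1421009_at was at 5.68, 5.23 and 7.62 in wildtype and 8.18, 9.95 and 9.62 in knockout arrays, a change of 3.07 ± 0.69 (adjusted p = 0.169 by limma). Probe set 1421008_at was near the bottom of the array, at 2.21, 2.72 and 2.66 against 2.56, 3.28 and 4.07. Here the groups overlapped and the change was 0.78 ± 0.37 (adjusted p = 0.671 by limma), or 0.39 without cKO replicate 3. Its wildtype mean lay at the 7.4th percentile of all probe sets.

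Ifit1 and Ifit3 encode tetratricopeptide proteins. Ifit1 binds RNA that lacks the host's cap methylation, and both promoters printed above hold a pair of ISRE matches. Ifit1 was at 3.05, 2.70 and 4.48 in Brg1 wildtype arrays and at 5.07, 8.79 and 6.60 in cKO arrays. All knockout arrays were higher than all wildtype arrays, but knockout replicate 1 was only just so, and the replicates spanned more than 3 log2 units. The change was 3.41 ± 0.90 (10.6-fold, adjusted p = 0.262 by limma), or 2.43 without cKO replicate 2.

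Ifit3 was at 5.68, 5.70 and 6.19 in wildtype and at 7.25, 9.98 and 7.33 in Brg1 cKO arrays. Replicates 1 and 3 were close together and replicate 2 was far above them. The change was 2.33 ± 0.68 (5.03-fold, adjusted p = 0.343 by limma). Without cKO replicate 2 it was smaller, 1.44 ± 0.22, and passed with an adjusted p of 0.0424 by limma. This pass was not set against all probe sets under that setting. Whether the near-identical copy Ifit3b adds to this probe set is not known.

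Irf7, the transcription factor that amplifies interferon production, was at 4.43, 4.52 and 4.46 in Brg1 wildtype arrays and at 5.42, 7.47 and 6.04 in cKO arrays. Its wildtype arrays were the tightest of the list (SD 0.05), and the knockout arrays were all above them. The change was 1.84 ± 0.47 (3.58-fold, adjusted p = 0.241 by limma), or 1.26 without cKO replicate 2.

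Usp18, the brake on receptor signalling, was at 3.96, 4.17 and 4.92 in wildtype and at 5.29, 8.89 and 6.48 in Brg1 cKO arrays. As for Ifit1, knockout replicate 1 lay just above the highest wildtype array and replicate 2 far above it. The change was 2.53 ± 0.82 (5.79-fold, adjusted p = 0.414 by limma), or 1.53 without cKO replicate 2. Oasl2, an oligoadenylate synthetase-like protein with ubiquitin-like domains, was at 4.66, 4.61 and 5.27 against 5.66, 8.33 and 6.49. Its groups did not overlap, and the change was 1.98 ± 0.62 (3.94-fold, adjusted p = 0.387 by limma), or 1.23 without cKO replicate 2.

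**Figure D1:**
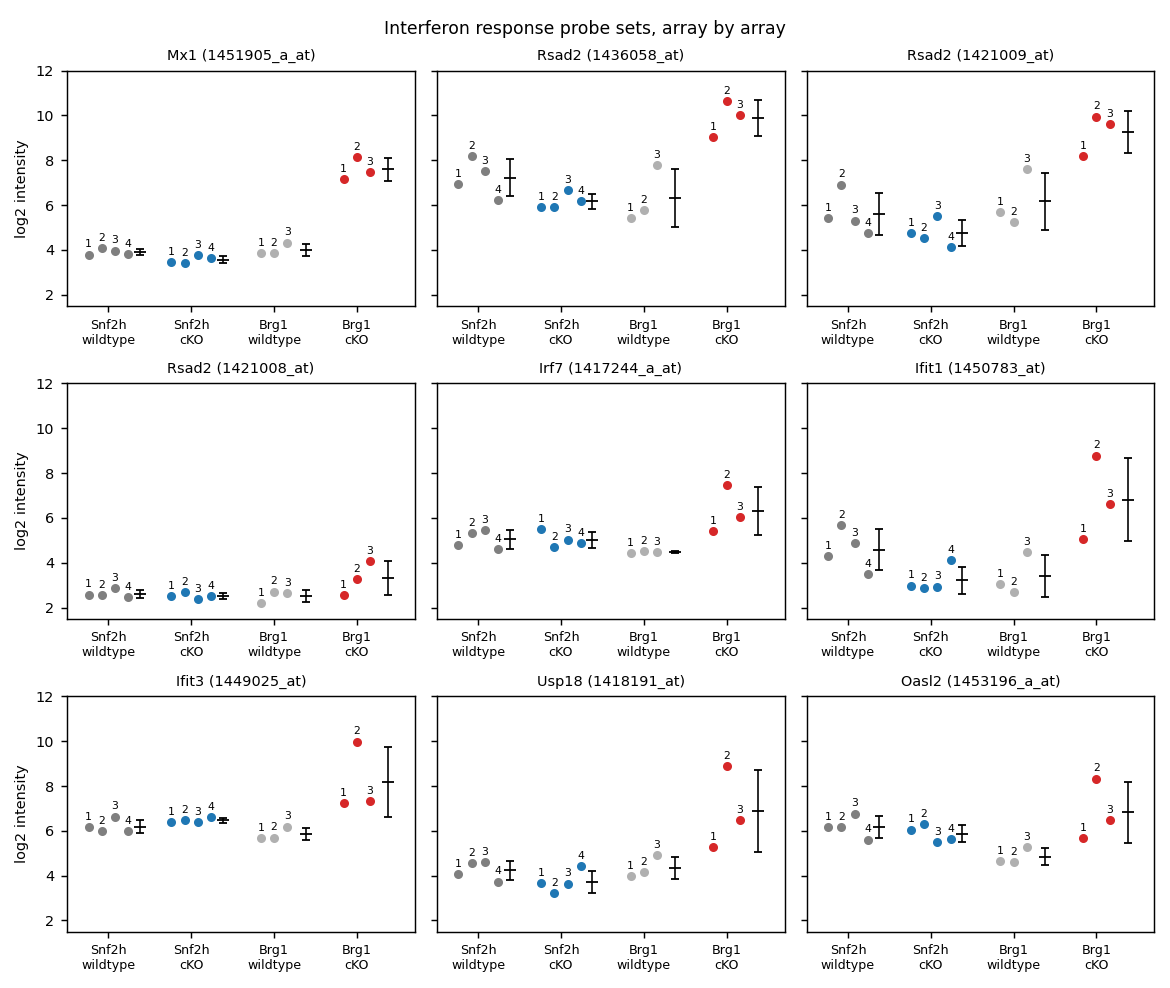
Log2 intensity of each interferon response probe set in every array, with the replicate number above each point and the group mean ± SD in black beside it (n = 4 for each Snf2h group, 3 for each Brg1 group). In Brg1 cKO eyes Mx1 sits between 7.15 and 8.14, above all wildtype arrays, and replicate 2 is the highest knockout array in 8 of 9 probe sets.

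The 3 Brg1 cKO arrays kept nearly the same order from gene to gene. Replicate 2 was highest, replicate 3 next and replicate 1 lowest in 8 of 9 probe sets, the exception being the dim Rsad2 probe set 1421008_at, where replicate 3 was highest. This order held in 17.3% of all probe sets and in 42.7% of the 905 that were higher at an unadjusted p under 0.05. Averaged over the 7 genes (the brightest probe set of each), the arrays lay 1.66, 4.13 and 2.45 log2 units above the wildtype mean for replicates 1, 2 and 3. The wildtype arrays also differed, at −0.32, −0.28 and 0.60, with replicate 3 highest in 7 of 9 probe sets against 36.7% of all probe sets.

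In Snf2h cKO eyes 8 of 9 interferon response probe sets had a lower mean than in wildtype eyes, and none passed the test. The median change was −0.35, against −0.03 over all probe sets, of which 53.8% had negative changes. By limma 0 of 9 were called lower, against 0% of all 20380 probe sets. At an unadjusted p under 0.05, 3 of 9 were lower (Ifit1, Mx1 and Rsad2 1436058_at), against 7.58% of all probe sets. Only for Mx1 did the groups not overlap, 1 of 9 against 4.17% of all probe sets.

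Ifit1 had the most negative change of the list in Snf2h cKO eyes. It was at 4.30, 5.68, 4.88 and 3.49 in wildtype replicates 1 to 4 and at 2.98, 2.86, 2.94 and 4.13 in cKO replicates 1 to 4. Replicates 1 to 3 of the knockout were below every wildtype array, while replicate 4 lay inside the wildtype range. The change was −1.36 ± 0.45 (2.57-fold lower, adjusted p = 0.188 by limma, n = 4 against 4). With the near-identical cKO replicates 1 and 2 averaged it was −1.26 (adjusted p = 0.379), and with array weights it was −1.74 (adjusted p = 0.0436). The pass with array weights was not set against all probe sets under that setting.

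Rsad2 1436058_at was at 6.93, 8.17, 7.51 and 6.24 in Snf2h wildtype arrays and at 5.92, 5.93, 6.65 and 6.18 in cKO arrays. The change was −1.04 ± 0.37 (adjusted p = 0.21 by limma), and it was −0.72 without wildtype replicate 2, the highest array. Probe set 1421009_at was at 5.42, 6.92, 5.31 and 4.74 against 4.76, 4.54, 5.52 and 4.14, a change of −0.86 ± 0.45 (adjusted p = 0.342), or −0.42 without wildtype replicate 2. Wildtype replicate 2 was again the highest array, and the groups overlapped for both probe sets.

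Mx1 was at 3.80, 4.08, 3.97 and 3.81 in Snf2h wildtype and at 3.45, 3.40, 3.75 and 3.64 in cKO arrays. The knockout arrays were all lower, by a small margin, and both groups were dim. The change was −0.35 ± 0.14 (adjusted p = 0.245 by limma). Of the remaining probe sets, Usp18 changed by −0.50 ± 0.28, Oasl2 by −0.30 ± 0.26, Rsad2 1421008_at by −0.11 ± 0.14 and Irf7 by −0.02 ± 0.24, with limma adjusted p values of 0.371 to 0.97. Usp18 was at −0.33 without cKO replicate 2, and without wildtype replicate 3, the array with the high Gapdh difference, Oasl2 was at −0.10 and Rsad2 1421008_at at −0.02. Ifit3, at 5.97 to 6.64 in wildtype and 6.39 to 6.62 in cKO arrays, had the single positive change, 0.27 ± 0.17 (adjusted p = 0.421), or 0.42 without wildtype replicate 3. The direction of Rsad2 1421008_at turned to 0.081 with quantile normalisation. That of Irf7 turned to as much as 0.12 when 1 array was left out.

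**Figure D2:**
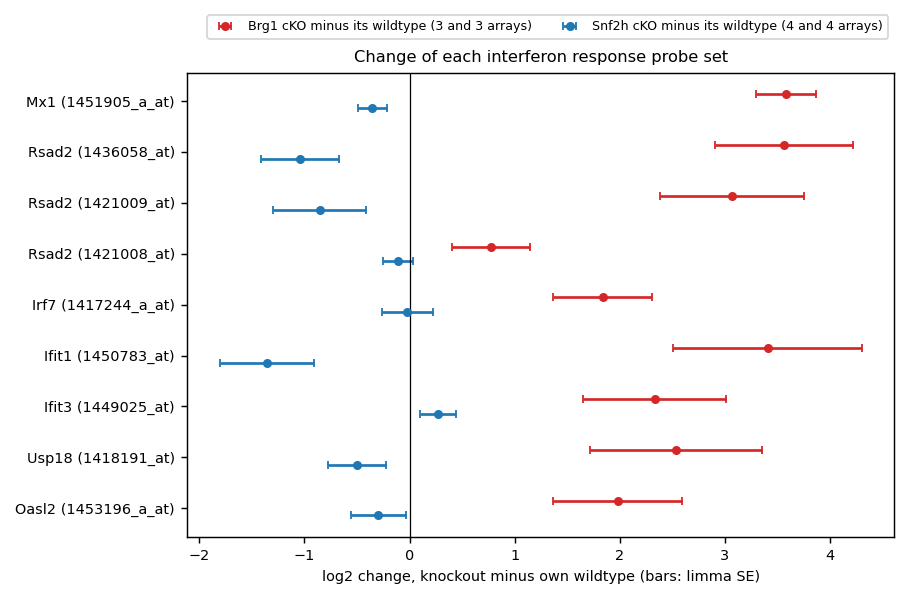
Log2 change of each interferon response probe set in each knockout relative to its own wildtype, with limma standard errors as bars (3 against 3 arrays for Brg1, 4 against 4 for Snf2h). All 9 changes are positive for Brg1, from 0.78 to 3.58, and 8 of 9 are negative for Snf2h, down to −1.36 for Ifit1.

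A single model of all 14 arrays gave the test of whether the knockouts differed in effect, with the Brg1 change minus the Snf2h change as the value. It was positive for all 9 probe sets and passed for 2, Mx1 (3.93 ± 0.30, adjusted p = 2.08e-05 by limma) and Rsad2 1436058_at (4.61 ± 0.78, adjusted p = 0.0135), against 0.545% of all probe sets. Ifit1 at 4.77 ± 1.03 (adjusted p = 0.0513) and Rsad2 1421009_at at 3.93 ± 0.86 (adjusted p = 0.0572) came close. The model shares 1 estimate of the spread over all groups. The median SD between replicates of the 9 probe sets was 1.07 in the Brg1 and 0.42 in the Snf2h experiment. The model's p-values are therefore approximate. Without Brg1 cKO replicate 1, the lowest knockout array, 7 of 9 passed, a count not set against all probe sets under that setting. The experiments differ in strain as well as in the deleted gene, so a difference between genes and one between strains cannot be told apart. The titles of the Brg1 experiment arrays also hold a second sample number, which those of the Snf2h experiment lack. Any difference between these sets of arrays cannot be told apart from gene and strain either.

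Set in order of level, Brg1 cKO eyes had the highest mean of the 4 groups for all 9 probe sets. Levels of the Brg1 and Snf2h experiments also differ by strain and set of arrays, so this order is a description. For Mx1 the 4 means were 7.59 ± 0.50 in Brg1 cKO, 4.01 ± 0.27 in Brg1 wildtype, 3.92 ± 0.14 in Snf2h wildtype and 3.56 ± 0.17 in Snf2h cKO eyes (SD). The wildtype means differed by less than their spread, and the first gap alone was wide. For Oasl2 the order was Brg1 cKO (6.83 ± 1.36), Snf2h wildtype (6.17 ± 0.47), Snf2h cKO (5.87 ± 0.37) and Brg1 wildtype (4.85 ± 0.37), so the Brg1 knockout eyes overlapped the Snf2h groups and only their own wildtype lay apart. Irf7 likewise had 6.31 ± 1.05 in Brg1 cKO eyes against 5.05 ± 0.42 and 5.03 ± 0.35 in Snf2h wildtype and cKO eyes and 4.47 ± 0.05 in Brg1 wildtype eyes.

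Other genes of the pathway were read by role, with the brightest probe set of each gene. Over all 12393 genes 62 were called higher and 44 lower in Brg1 cKO eyes, and 0 in Snf2h cKO eyes. A count of 0 in Snf2h cKO eyes is therefore no trait of a list. The interferons themselves gave no called gene among 10 measured in either knockout, with median changes of −0.05 in Brg1 and −0.13 in Snf2h cKO eyes, beside 0.02 and −0.05 over all 12393 genes. Ifnb1, the first interferon made in most cells, was at 2.42, 2.90 and 2.46 in Brg1 wildtype and 2.61, 2.98 and 2.76 in cKO arrays, so the groups overlapped near the bottom of the array. Ifng, the interferon of T and NK cells, was at 1.89 to 2.18 against 1.90 to 2.20. The list had a median wildtype level of 2.52 in that experiment, and the ligands' part in the members' change was not tested. Ifna2 (0.33 ± 0.18) and Ifna11 (−0.57 ± 0.42) had the smallest p in Brg1 cKO eyes, with adjusted p of 0.735 and 0.797 by limma.

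Most receptors and signal transducers had small positive changes in Brg1 cKO eyes, where 52.8% of all genes were positive. Of 5 receptor chains 0 were called and 4 were positive (median 0.27), with Ifngr1 at 0.44 ± 0.21 and Il10rb at 0.50 ± 0.24 (adjusted p = 0.661 and 0.681 by limma). Of 12 transducers 0 were called and 11 were positive (median 0.33). Stat2 was at 6.12, 6.02 and 5.91 in wildtype and 6.90, 7.01 and 6.54 in cKO arrays, groups that did not overlap (0.80 ± 0.19, adjusted p = 0.194). Socs3, a feedback inhibitor of cytokine receptors that many cytokines induce, changed by 1.70 ± 0.36 (adjusted p = 0.14). In Snf2h cKO eyes 0 of these 17 genes were called, with Ifngr2 at 0.67 ± 0.18 (adjusted p = 0.14, its other probe set at −0.08) and Ptpn11 at −0.37 ± 0.19 (adjusted p = 0.333, its other probe sets at 0.50 and 0.06) among those of smallest p.

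Sensors of foreign nucleic acid, which are interferon-induced in part, gave 0 calls among 15 genes. In Brg1 cKO eyes 14 were positive (median 0.44), where 52.8% of all genes were positive. Of the same genes 2 were positive in Snf2h cKO eyes (median −0.30), where 43.5% of all genes were positive. Dhx58, a cytosolic RNA sensor, changed by 1.34 ± 0.40 (adjusted p = 0.363 by limma; its other probe sets gave 0.36 and 0.11) and Sting1, the adaptor for cytosolic DNA, by 1.05 ± 0.36 (adjusted p = 0.458) in Brg1 cKO eyes. In Snf2h cKO eyes Tlr3, a receptor for double-stranded RNA, changed by −0.55 ± 0.16 (adjusted p = 0.163, its other probe set at 0.06) and Tlr9 by −0.59 ± 0.20 (adjusted p = 0.197). Among 6 other interferon regulatory factors 0 were called in either knockout, with Irf8, a factor of myeloid cells, at 0.80 ± 0.23 (adjusted p = 0.343, its other probe set at 0.45) and Irf4, a factor of lymphocytes, at −0.72 ± 0.29 (adjusted p = 0.586, its other probe set at −0.59) in Brg1 cKO eyes.

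The widest list held 44 other interferon-stimulated genes. In Brg1 cKO eyes 3 rose, 0 fell and 43 had positive changes (median 0.82), where 0.5% of all genes rose and 52.8% were positive. At an unadjusted p under 0.05, 15 were higher and 1 was lower, against 5.36% of all genes higher. Slfn4, a Schlafen gene of myeloid cells, was at 3.49, 3.25 and 4.07 in wildtype and at 9.22, 10.48 and 9.93 in cKO arrays. It rose by 6.28 ± 0.35 on the log2 scale (adjusted p = 0.000604 by limma). Slfn1 rose by 3.52 ± 0.37 (adjusted p = 0.0123), and Ms4a4c, a myeloid membrane protein that is also in the monocyte marker list, rose by 3.56 ± 0.55 (adjusted p = 0.0464; its other probe set by 4.24). The single negative change was in Tdrd7, a gene that is also known in lens fibres, at −2.03 ± 0.34 (adjusted p = 0.0675).

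In Snf2h cKO eyes 0 of these 44 genes were called and 34 had negative changes (median −0.20). The other 10 were positive, where 43.5% of all genes were positive, with a median of −0.05. The smallest p belonged to Trim30a, a negative regulator of innate signalling, with levels of 4.94 to 5.83 in wildtype and 3.42 to 4.51 in cKO arrays (−1.47 ± 0.27, adjusted p = 0.083 by limma; its other probe set at −0.39). Rtp4 changed by −0.78 ± 0.22 (adjusted p = 0.146, its other probe set at −0.26). Genes for attaching Isg15 to proteins numbered 3, Uba7, Ube2l6 and Trim25, and 0 were called. Their changes in Brg1 cKO eyes were 0.78 ± 0.34, 1.01 ± 0.59 and 0.31 ± 0.42 (adjusted p of 0.623 to 0.9).

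Genes typical of interferon gamma had 0 calls among 23 in either knockout. In Brg1 cKO eyes 22 of 23 changes were positive, with a median of 0.90, and 8 were higher at an unadjusted p under 0.05, where 52.8% of all genes were positive and 5.36% were higher by that measure. Cxcl10, a chemokine for T cells, was at 3.11, 3.55 and 3.69 in wildtype and 5.15, 8.06 and 6.42 in cKO arrays, in the order of replicates seen for the members (3.09 ± 0.65, adjusted p = 0.14 by limma). Cxcl11 changed by 1.62 ± 0.43 (adjusted p = 0.269), while its other probe set gave −0.51. In Snf2h cKO eyes 7 of 23 were positive (median −0.16), where 43.5% of all genes were, with Ifi47 at −0.38 ± 0.16 (adjusted p = 0.273) and Gbp7 at −0.49 ± 0.23 (adjusted p = 0.292) of smallest p.

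**Figure D3:**
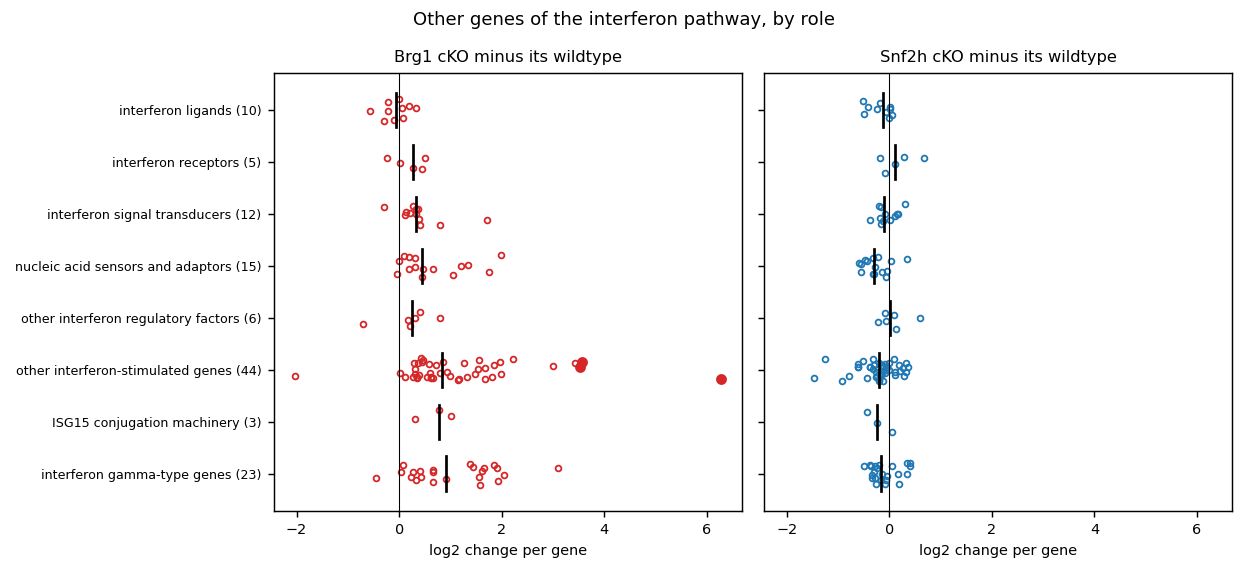
Log2 change of each other gene of the interferon pathway, by role, in Brg1 cKO (left) and Snf2h cKO eyes (right) relative to own wildtype; each circle is 1 gene (brightest probe set), filled circles passed an adjusted p under 0.05, black bars are list medians and the number of genes is in parentheses. In Brg1 cKO eyes 3 genes of the interferon-stimulated list are filled, Slfn4 at 6.28 being the farthest, and the ligands centre near 0.

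Markers of some immune cells moved with the members in the Brg1 experiment. Of 12 neutrophil markers 3 rose in Brg1 cKO eyes, Clec4d (5.69 ± 0.48, adjusted p = 0.00512 by limma), S100a9 (4.48 ± 0.41, 0.0073) and S100a8 (5.01 ± 0.54, 0.0138), where 0.5% of all genes rose. Of the 12 changes 9 were positive, where 52.8% of all genes were positive. The granule genes Mmp8 (1.01), Ngp (0.96) and Camp (0.67) were among these 9 and did not pass. The 3 negative changes, in the granule genes Ltf (−0.47), Elane (−0.02) and Mpo (−0.0080), did not pass either. The mean log2 level of the list was 5.498 to 7.16 in cKO against 4.07 to 4.52 in wildtype arrays. Replicate 2 was also the highest array for these markers, with list means of 1.18, 2.84 and 1.42 above wildtype in replicates 1, 2 and 3. S100a8 and S100a9 are also made by inflamed surface epithelium, so they do not mark neutrophils alone. Of 6 inflammatory monocyte markers 1 rose, Ms4a4c, and the list stood 0.36, 2.26 and 1.30 above wildtype (means of 5.71 to 7.61 against 5.19 to 5.58).

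Other immune lists moved less. Of 11 resident macrophage markers 0 were called and 10 had positive changes (median 0.40), where 52.8% of all genes were positive. The largest were Aif1 (1.20 ± 0.29, adjusted p = 0.211 by limma) and Cd68 (1.08 ± 0.26, adjusted p = 0.199). The 1 negative change was in P2ry12 (−0.76 ± 0.21, adjusted p = 0.297). The macrophage list had means of 6.81 to 7.41 in cKO and 6.51 to 6.96 in wildtype arrays. Plasmacytoid dendritic cells are strong interferon producers, and their 6 measured markers, several of which other cells express, had means of 6.13 to 6.38 against 6.16 to 6.31. Lymphocyte and NK markers had means of 3.04 to 3.22 against 3.05 to 3.17, with 0 of 10 called. Lens marker means were 8.73 to 11.1 in Brg1 cKO against 12.2 to 12.5 in wildtype arrays. Of the 6 lens genes 0 were called and 6 had negative changes, where 52.8% of all genes were positive. Corneal and surface epithelium markers also lay apart, at 7.46 to 8.28 against 8.88 to 9.08. Of these 8 markers 1 fell, the corneal keratin Krt12 (−3.70 ± 0.20, adjusted p = 0.000546 by limma), where 44 of all 12393 genes fell. The part of these cell differences in the members' change was not tested.

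In the Snf2h experiment all marker lists gave 0 calls, where 0 of all 12393 genes were called. The means of the 5 immune lists overlapped between the groups. Neutrophil markers had means of 3.90 to 4.61 in cKO and 4.11 to 4.54 in wildtype arrays, monocyte markers 4.84 to 5.36 against 4.90 to 5.44, and macrophage markers 6.83 to 7.35 against 6.72 to 7.51. Lymphocyte and NK markers had means of 2.93 to 3.28 against 3.07 to 4.06, with a median change of −0.38 and 4 of 10 changes positive. Cd3e (−0.97 ± 0.24, adjusted p = 0.123 by limma) and Cd79a (−0.99 ± 0.25, adjusted p = 0.125) were lower in every cKO array than in any wildtype array. Such a gap was seen in 4.17% of all probe sets. Their partner chains went the other way, with Cd3g at 0.42, Cd3d at 0.17 and Cd79b at 0.34. Retina markers did lie apart, by a narrow margin, at 10.164 to 10.65 in cKO and 9.79 to 10.157 in wildtype arrays. Their changes were positive in 6 of 6, where 43.5% of all genes were positive. The Gapdh 3′ minus 5′ difference separated the groups too, at 0.77 to 0.99 in cKO and 1.09 to 4.47 in wildtype arrays. The part of these differences in the lower member levels was not tested. Member means relative to wildtype were −0.64 to −0.27 in the cKO arrays and −0.56 to 0.37 in the wildtype arrays, so they overlapped.

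**Figure D4:**
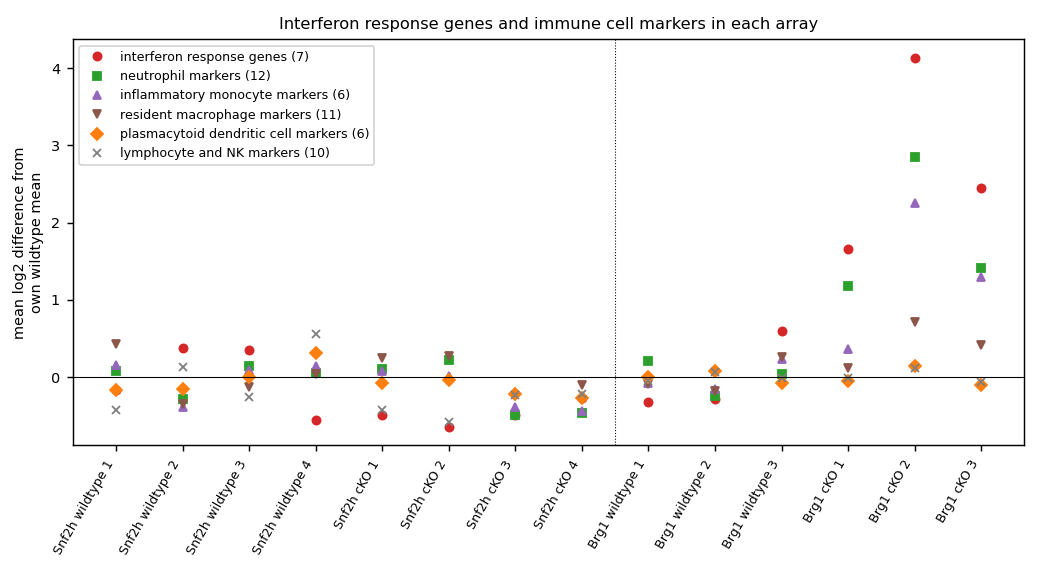
Mean log2 difference of each array from the mean of its own wildtype group, for the 7 interferon response genes and for 5 immune marker lists; the dotted line parts the experiments. Brg1 cKO replicate 2 is highest for the interferon genes (4.13), the neutrophil markers (2.84) and the monocyte markers (2.26), while dendritic cell and lymphocyte markers stay close to 0.

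The members also varied together among arrays of the same group. With each group mean removed, correlations between pairs of the 7 genes over 14 arrays ranged from 0.48 (Rsad2 and Ifit3) to 0.93 (Usp18 and Ifit1), with a median of 0.81 over 21 pairs. Without the 3 Brg1 cKO arrays they ranged from 0.175 (Oasl2 and Mx1) to 0.91 (Rsad2 and Mx1), with a median of 0.48 over 11 arrays. The genes of a pair were read on the same arrays, so depth of labelling and cell make-up are shared, and these values are a description.

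Genes of the interferon gamma list followed the members' mean in the same way, with a median r of 0.81 over 14 arrays and 0.36 without the Brg1 cKO arrays, and the other interferon-stimulated genes had 0.65 and 0.20. Over all 12386 other genes the medians were −0.02 and 0.03. Among genes with a mean level above the median of all values, the 8 with the highest r were Hspb1, Cd53, Slc35e4, Ltbp1, Cdkn1a, Noct, Herpud1 and Bhlhe40. Their r ran from 0.86 to 0.89 over 14 arrays and from 0.60 to 0.83 without the Brg1 cKO arrays, with Spearman's rho of 0.72 to 0.90 over all 14. None of these 8 is in the interferon lists. Cd53, a tetraspanin of white blood cells, had the largest change among them in Brg1 cKO eyes, 1.88 ± 0.37 (adjusted p = 0.114 by limma).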

How the data were processed

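The authors deposited linear intensity per probe set from single-colour Affymetrix arrays, made with RMA per the submitters' processing notes, which give no version. Per the labels' protocols, 50 ng of RNA was amplified and labelled with biotin. No detection calls were used, and the number of arrays limits the precision. The log2 of each intensity was taken without further scaling. Of 22690 probe sets, 64 controls, 691 with several genes and 1555 with none were left out. Each knockout was compared with its own wildtype, and the difference between knockouts over all 14 arrays, with limma 3.58.1 in R 4.3.3, two-sided, with Benjamini-Hochberg adjustment over 20380 probe sets. The fits were first run on simulated data with the same spread in both groups, to check the size of the change recovered. That run does not bear on p-values where the groups differ in spread. Lists used the brightest probe set per gene. Named genes were all members, up to 4 called genes per pathway list, direction and knockout or, with none called, genes among the 2 of smallest p, the 8 genes most like the members, and marker genes. Ifnb1, Ifng, Tdrd7 and the third Isg15 conjugation gene were named after their values were seen. The members, lists and alternatives were chosen with earlier results of these data known. Alternatives were quantile normalisation, a filter on dim probe sets, 1 probe set per gene, trended robust eBayes, array weights, a replicate block, 1 fit over all arrays, averaging the near-identical arrays and leaving out each array.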

Additional observations from a re-analysis of the deposited data

Results flagged for a closer look

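Ifit1 in Snf2h cKO replicate 4, at a log2 level of 4.13, stood apart from the other 3 knockout arrays at 2.86 to 2.98, with a gap of 0.906 of the group's range. This was 1 of 18 groups of 4 arrays examined, and chance flags about 1 in 20. The Brg1 and Snf2h effects differed by the interaction test for Mx1 (3.93, adjusted p = 2.08e-05 by limma) and for Rsad2 1436058_at (4.61, adjusted p = 0.0135 by limma).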

How the results depend on the processing

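The count of interferon response probe sets that passed in Brg1 cKO eyes was 0 with the filter on dim probe sets, which kept 1 of the 9 and not Mx1, 2 with trended robust eBayes, 6 with 1 fit over all arrays, and 1 to 2 when 1 array was left out. The fit over all arrays shares its estimate of the spread with the Snf2h arrays, where these probe sets varied less. In Snf2h cKO eyes array weights gave 1 lower probe set, Ifit1, and the median was −1.04 with the dim filter, where it rests on 1 probe set. The count for the difference between knockouts ranged from 2 to 7 when 1 array was left out. These counts are not set beside the share of all probe sets called under the same setting. Their rise or fall is therefore not a result about the members. Changes of sign were limited to Snf2h cKO eyes, in Rsad2 1421008_at (0.081 with either quantile normalisation) and Irf7 (−0.18 to 0.12 when 1 array was left out); the cause was not tested. With the replicate block Mx1 in Brg1 cKO eyes had an unchanged 3.58 (adjusted p = 0.0226) and the count was 1; the numbers share only a label, since deviations of same-numbered arrays correlated at −0.23 to 0.13. Over all probe sets the block gave 36 higher and 14 lower in Brg1 cKO eyes, against 74 and 53 without it. Dim levels limit Mx1, Ifit1, Usp18 and Rsad2 1421008_at most.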
